A study of Mus musculus with 24 samples.

Results

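The mRNAs of 10 subunits of polycomb repressive complex 2 (PRC2) were followed in differentiating male C57/Bl6 mouse embryonic stem cells (mESCs). The members were *Ezh1*, *Ezh2*, *Eed*, *Suz12*, *Rbbp4*, *Rbbp7*, *Mtf2*, *Phf19*, *Jarid2* and *Aebp2*, each found by its symbol on 1 row among the 25965 entries of the deposited expression table. All 10 were among the 13296 genes with enough reads to be tested. RNA-seq had been performed on days 4, 5, 6 and 7 of differentiation, and the values are log2 rpm, in which each gene's read count is divided by its library's total. The series asks what loss of *Smarcc1* or *Smarca4*, both subunits of the BAF chromatin remodelling complex, does to differentiating male cells.

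The cells were male mESC lines of the C57/Bl6 strain, expanded in 2i (inhibitors of MEK and GSK3 that hold mESCs in the naive state) and weaned into DME HiHi medium, which lets them differentiate without direction. Every group received short hairpin RNA (shRNA) virus on day 2 and puromycin from day 3, the controls included. Nons cells carried a nonsilencing hairpin and are represented here by 1 library per day (4 libraries). The labels list 2 Nons libraries per day, and the other 4 were not analysed here. Smarcc1 knockdown cells carried hairpin 6 or hairpin 7, and Smarca4 knockdown cells hairpin 4 or hairpin 6, so each knockdown gave 2 libraries per day (8 libraries). The 20 libraries therefore formed 5 culture series of 4 days, and the 2 libraries of a knockdown on a day differed in their hairpin. Nothing in the labels says that the hairpins were grown as independent cultures repeated on other dates, so p-values measure the spread between hairpins and may not cover that between experiments. A knockdown leaves part of the target's mRNA, and selection leaves cells that differ in how much.

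PRC2 deposits methyl groups on lysine 27 of histone H3, and the trimethylated form (H3K27me3) marks repressed developmental genes in mESCs and the inactive X chromosome in female cells. Its core holds 1 of the methyltransferases EZH1 and EZH2, the H3K27me3 reader EED, the scaffold SUZ12, and 1 of the histone binding proteins RBBP4 and RBBP7, which also serve other chromatin complexes. Accessory subunits form alternative versions of the complex. A Polycomb-like protein (PHF1, MTF2 or PHF19) defines PRC2.1, and JARID2 with AEBP2 defines PRC2.2.

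The promoter sequences of the paralog pairs *Ezh2* and *Ezh1*, and *Rbbp4* and *Rbbp7*, are shown because their mRNAs moved in opposite directions over the timecourse, and that of *Suz12* because it had the largest fitted difference between the Smarcc1 knockdown and Nons. Each is the 250 bases upstream of the RefSeq transcription start in GRCm38.p6, written 5′ to 3′ on the strand of the gene. For *Ezh2* this start lies inside the gene extent of the deposited table, which begins further upstream. Capitals mark CCAAT or its complement ATTGG, and, in *Suz12*, an E2F word.
Ezh2 (chr6:47595031-47595280, minus strand): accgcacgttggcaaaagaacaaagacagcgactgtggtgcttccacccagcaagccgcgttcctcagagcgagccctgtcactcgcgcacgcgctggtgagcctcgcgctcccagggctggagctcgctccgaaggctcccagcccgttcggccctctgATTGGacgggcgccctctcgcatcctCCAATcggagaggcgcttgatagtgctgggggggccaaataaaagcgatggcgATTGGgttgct
Ezh1 (chr11:101226464-101226713, minus strand): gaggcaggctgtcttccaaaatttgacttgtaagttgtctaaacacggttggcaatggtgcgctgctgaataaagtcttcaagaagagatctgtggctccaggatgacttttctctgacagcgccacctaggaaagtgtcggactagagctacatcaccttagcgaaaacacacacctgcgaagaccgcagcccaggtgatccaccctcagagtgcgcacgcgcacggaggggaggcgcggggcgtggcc
Rbbp4 (chr4:129335371-129335620, minus strand): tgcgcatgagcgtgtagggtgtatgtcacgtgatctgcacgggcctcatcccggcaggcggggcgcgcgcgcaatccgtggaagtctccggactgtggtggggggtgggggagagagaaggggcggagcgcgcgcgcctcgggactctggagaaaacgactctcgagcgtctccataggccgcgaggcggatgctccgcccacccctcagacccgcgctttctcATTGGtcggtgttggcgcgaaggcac
Rbbp7 (chrX:162760122-162760371, plus strand): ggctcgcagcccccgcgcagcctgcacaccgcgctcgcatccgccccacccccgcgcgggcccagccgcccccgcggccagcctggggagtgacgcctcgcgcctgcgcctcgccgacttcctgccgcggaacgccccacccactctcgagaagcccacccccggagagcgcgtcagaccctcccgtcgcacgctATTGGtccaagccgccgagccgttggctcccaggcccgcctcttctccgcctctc
Suz12 (chr11:79992856-79993105, plus strand): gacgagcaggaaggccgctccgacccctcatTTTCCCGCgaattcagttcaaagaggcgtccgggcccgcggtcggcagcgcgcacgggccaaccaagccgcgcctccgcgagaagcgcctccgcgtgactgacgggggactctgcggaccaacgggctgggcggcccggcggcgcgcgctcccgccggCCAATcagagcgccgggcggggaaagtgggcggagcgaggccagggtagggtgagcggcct
The *Ezh2* window held the CCAAT word 3 times, and the *Ezh1* window did not hold it. Both RBBP genes had it once, within 55 bases of the start. The word was looked for on both strands and occurred in 33.8% of the 32851 RefSeq promoter windows of this length. Among the 10 members, 7 had it in at least 1 window. That count is per gene, so it cannot be set against the share per window. The 10 members had 14 windows, and *Mtf2*, *Aebp2* and *Jarid2*, with more than 1 window each, held the word in only 1 of theirs. The E2F words searched were TTTCCCGC, TTTGGCGC, TTTCGCGC and TTTGCCGC, also on both strands and with no overlap with CCAAT. They were present in 1.86% of all windows and among the members in those of *Suz12* and *Phf19*. GC content of the members' 14 windows ranged from 46.4 to 76.4%, with a median of 64.2% against 52.4% over all windows. A match describes the letters and does not show that a factor binds there.

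Library totals, recovered from the log2 values, ranged from 6829596 to 27472885 reads. The smallest belonged to Smarca4 hairpin 4 on day 5, and the next held 15717152. The member with the fewest reads, *Phf19*, had 40 to 239 reads per library. *Smarcc1* mRNA lay at 23.7 to 60.1% of same-day Nons in the 8 Smarcc1 knockdown libraries (log2 fold change -1.33 ± 0.21 SE, adjusted p = 0.00115). *Smarca4* mRNA lay at 21.6 to 55.3% of same-day Nons in the 8 Smarca4 knockdown libraries (log2 fold change -1.79 ± 0.29 SE, adjusted p = 0.00277). *Pou5f1*, the pluripotency factor also called Oct4, ranged from 1171 to 1607 rpm on day 4 and from 130.7 to 384 rpm on day 7. *Dnmt3b*, a formative epiblast marker, was at 897.8 to 1283 rpm on day 4. The naive markers *Esrrb* and *Klf4* had day 4 medians of 99.1 and 16.7 rpm and day 7 medians of 7.82 and 2.74 rpm. Other pluripotency markers fell less or rose. Day 4 and day 7 medians were 49.6 and 29.3 rpm for *Zfp42*, 717 and 622 rpm for *Dppa5a*, and 4.70 and 12.2 rpm for *Tbx3*.

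From day 4 to day 7, all 10 PRC2 subunits changed: 8 fell and 2 rose. *Jarid2* had the largest fall (-2.47 on the log2 scale), followed by *Mtf2* (-1.44), *Phf19* (-1.37), *Suz12* (-1.13) and *Aebp2* (-1.05), and then by *Eed* (-0.83), *Ezh2* (-0.76) and *Rbbp4* (-0.65). *Ezh1* (1.07) and *Rbbp7* (0.87) rose. Day 7 against day 4 was averaged over Nons and both knockdowns with equal weight. A gene is said here to have passed when its Benjamini-Hochberg adjusted p over all 13296 genes, from limma, was under 0.05. In this comparison 64.5% of all tested genes passed, 35.7% higher and 28.8% lower on day 7. The members' median log2 fold change was -0.94, and that of all tested genes 0.08. No library of day 7 overlapped the day 4 libraries for any of the 10 members, which was so for 63.3% of all tested genes. In bulk RNA, fewer cells that express a gene and less of its RNA per cell cannot be told apart. Markers of several cell types moved over these days. The summed rpm of 8 pluripotency markers, *Pou5f1*, *Sox2* and *Nanog* among them, went from a median of 2804 (2406 to 2917) on day 4 to 1061 (656.5 to 1343) on day 7, and that of 7 proliferation markers from 3611 (3535 to 3672) to 2337 (2122 to 2398). Summed formative epiblast markers (5 genes) went from a median of 1317 to 384 rpm, primitive endoderm markers (6 genes) from 4.19 to 35.5 rpm and fibroblast markers (6 genes) from 9.56 to 54.1 rpm. Mesoderm markers (5 genes) were at 13.5 and 11.02 rpm and neural markers (4 genes) at 94.0 and 120 rpm. Genes within a list did not all move alike. In the primitive endoderm list *Dab2* went from a median of 1.73 to 27.6 rpm. Of the fibroblast list, *Col1a1* (1.88 to 24.1 rpm), *Col1a2* (0.291 to 24.3 rpm) and *Postn* (0.0408 to 2.43 rpm) rose, while *Dcn* (1.37 to 0.503 rpm) and *Thy1* (4.67 to 3.20 rpm) fell. Among neural genes *Nes* rose from 14.8 to 74.0 rpm and *Tubb3* fell from 57.6 to 15.2 rpm. Of the proliferation list, *Mcm2* (756 to 210 rpm), *Mcm5* (610 to 184 rpm) and *Pcna* (331 to 151 rpm) fell most. *Mki67* (221 to 196 rpm), *Top2a* (1111 to 1016 rpm), *Ccnb1* (310 to 267 rpm) and *Cdk1* (263 to 218 rpm) fell less. Of these 7 genes 3 passed, all lower, and the median log2 fold change of the list was -0.18. *Lum*, *Mesp1*, *T*, *Foxa2* and *Sox17* stayed under 1 rpm in every library. The part of cell makeup in the PRC2 changes was not tested.

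**Figure D1:**
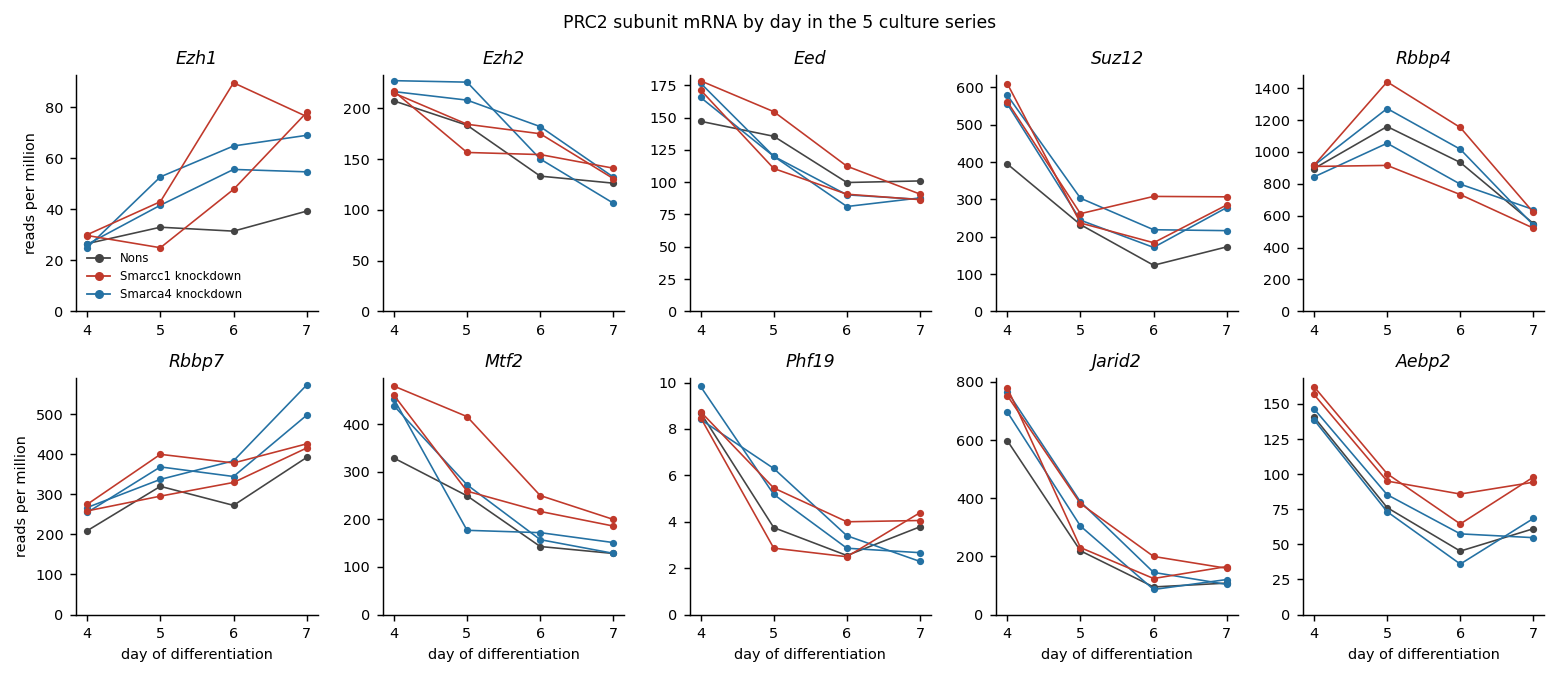
Levels in rpm (y axis, from 0, own scale in each panel) of the 10 PRC2 subunits on days 4 to 7 (x axis). Each line is 1 culture series, 1 library per point: Nons in grey, the 2 Smarcc1 hairpins in red and the 2 Smarca4 hairpins in blue. *Ezh1* and *Rbbp7* ended higher than they began in all 5 series and the other 8 genes ended lower.

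The methyltransferases moved in opposite directions. *Ezh2* encodes the main methyltransferase of dividing cells, and *Ezh1* a paralog that is less active as an enzyme and common in resting tissue. *Ezh2* (chr6:47530274-47595341, mm10) stood on day 4 at 207 rpm in Nons, 217 and 215 rpm in the Smarcc1 knockdown, and 217 and 227 rpm in the Smarca4 knockdown. By day 7 its values were 126 rpm in Nons, 141 and 131 rpm in the Smarcc1 knockdown, and 132 and 107 rpm in the Smarca4 knockdown. Every series fell, to 46.9 to 65.1% of its own day 4 value (log2 fold change -0.76 ± 0.12 SE, adjusted p = 8.43e-05). *Ezh1* (chr11:101191115-101226463) began at 26.5 rpm in Nons, 29.7 and 30.04 rpm in the Smarcc1 knockdown, and 26.3 and 24.99 rpm in the Smarca4 knockdown. It ended at 39.3 rpm in Nons, 77.9 and 76.3 rpm in the Smarcc1 knockdown, and 54.7 and 69.0 rpm in the Smarca4 knockdown. All 5 series rose, to 148 to 276% of day 4, with Nons rising least (log2 fold change 1.07 ± 0.20 SE, adjusted p = 0.000435).

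Both other core subunits fell. *Suz12* (chr11:79993106-80034123) was measured on day 4 at 395 rpm in Nons, 610.3 and 562 rpm in the Smarcc1 knockdown, and 579 and 556 rpm in the Smarca4 knockdown. On day 7 the levels were 173 rpm in Nons, 285 and 307 rpm in the Smarcc1 knockdown, and 216 and 278 rpm in the Smarca4 knockdown, and each series held 37.3 to 54.6% of its day 4 level (log2 fold change -1.13 ± 0.16 SE, adjusted p = 4.13e-05). Nons was the lowest series on both days. *Eed* (chr7:89954656-89980983) went from 147 to 179 rpm on day 4 to 86.5 to 101 rpm on day 7 (log2 fold change -0.83 ± 0.12 SE, adjusted p = 6.2e-05). Nons had the lowest *Eed* level on day 4 and the highest on day 7.

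The histone binding subunits also diverged. *Rbbp4* (chr4:129307100-129335370) was at 896 rpm in Nons, 916 and 909 rpm in the Smarcc1 knockdown, and 844 and 915 rpm in the Smarca4 knockdown on day 4. On day 7 it had come to 551 rpm in Nons, 621 and 522 rpm in the Smarcc1 knockdown, and 638 and 541 rpm in the Smarca4 knockdown (log2 fold change -0.65 ± 0.17 SE, adjusted p = 0.00494; without Smarca4 hairpin 6, adjusted p = 0.0513). Day 5 values spread from 915.8 to 1440 rpm, the highest of the timecourse in all 5 series. *Rbbp7*, on the X chromosome (chrX:162760402-162779092), rose from 209 rpm in Nons, 275 and 258 rpm in the Smarcc1 knockdown, and 267 and 255 rpm in the Smarca4 knockdown on day 4. It reached 391.8 rpm in Nons, 426 and 415 rpm in the Smarcc1 knockdown, and 572 and 497 rpm in the Smarca4 knockdown on day 7, which is 155 to 214% of day 4 (log2 fold change 0.87 ± 0.12 SE, adjusted p = 3.46e-05). Some of their reads may not be assigned to 1 gene with certainty. Of the 75-base words in the longest coding transcript, 31.4% for *Rbbp4* and 9.54% for *Rbbp7* also occur, on either strand, in transcripts of other annotated genes (most often *Gm26722* and *Gm6382*). For *Eed* (*E230029C05Rik*) and *Mtf2* (*Tmed5*) the shares were 9.38 and 8.08%, and for the other members at most 2.47%. *Gm26722*, *E230029C05Rik* and *Tmed5* overlap exons of these members on the opposite strand. Words shared with them leave open which gene a read counts for, not where in the genome it lies. Whether the counting used strand or placed such reads is not given in the sources used here.

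The PRC2.1 subunits fell. *Mtf2*, a Polycomb-like protein that binds CpG-rich DNA (chr5:108065674-108109004), was at 329 rpm in Nons, 480.5 and 461 rpm in the Smarcc1 knockdown, and 439 and 453 rpm in the Smarca4 knockdown on day 4. Its day 7 levels were 128 rpm in Nons, 200.0 and 186 rpm in the Smarcc1 knockdown, and 129 and 151 rpm in the Smarca4 knockdown, or 29.3 to 41.6% of day 4 (log2 fold change -1.44 ± 0.16 SE, adjusted p = 5.31e-06). *Phf19*, its paralog (chr2:34893757-34914026), had the lowest level of the 10 genes per length, at 8.41 to 9.83 rpm on day 4 and 2.29 to 4.39 rpm on day 7 (log2 fold change -1.37 ± 0.22 SE, adjusted p = 0.000108).

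The PRC2.2 subunits fell as well, *Jarid2* furthest of all members. JARID2 is a Jumonji family protein without demethylase activity that binds PRC2 and helps bring it to chromatin. *Jarid2* (chr13:44729474-44921643) stood on day 4 at 598 rpm in Nons, 780.0 and 753 rpm in the Smarcc1 knockdown, and 767 and 697 rpm in the Smarca4 knockdown. On day 7 there remained 108 rpm in Nons, 165 and 159 rpm in the Smarcc1 knockdown, and 104 and 120.4 rpm in the Smarca4 knockdown, from 13.5 to 21.2% of each series' day 4 level (log2 fold change -2.47 ± 0.20 SE, adjusted p = 2.89e-07). *Aebp2*, a zinc finger partner of SUZ12 (chr6:140622449-140678472), went from 141 rpm in Nons, 162 and 157 rpm in the Smarcc1 knockdown, and 147 and 139 rpm in the Smarca4 knockdown to 61.1 rpm in Nons, 97.9 and 94.2 rpm in the Smarcc1 knockdown, and 54.8 and 68.4 rpm in the Smarca4 knockdown (log2 fold change -1.05 ± 0.15 SE, adjusted p = 4.88e-05). Within a library, the log2 ratio of *Jarid2* to *Mtf2* reads was 0.62 to 0.86 on day 4 and -0.33 to -0.23 on day 7. It was lower on day 7 than on day 4 in all 5 series, and ranged from -1.01 to -0.12 on day 6. This ratio takes a single accessory gene from each version and does not stand for their balance. From day 4 to day 7 *Aebp2* fell less (-1.05) than *Mtf2* (-1.44) and *Phf19* (-1.37), and the Polycomb-like gene *Phf1* rose (1.10).

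The members that passed differed from step to step. From day 4 to day 5, 7 passed, when 38.7% of all tested genes did (19.5% higher and 19.2% lower): *Jarid2* (-1.30 on the log2 scale), *Suz12* (-1.02), *Phf19* (-1.004), *Aebp2* (-0.81), *Mtf2* (-0.65) and *Eed* (-0.35) fell, and *Rbbp7* rose (0.47). From day 5 to day 6, 5 passed, all lower, against a background of 32.3% (17% higher and 15.3% lower): *Jarid2* (-1.25), *Aebp2* (-0.65), *Mtf2* (-0.57), *Suz12* (-0.49) and *Eed* (-0.43). From day 6 to day 7 the members that passed were both RBBP genes, *Rbbp4* lower (log2 fold change -0.69 ± 0.17 SE, adjusted p = 0.0133) and *Rbbp7* higher (log2 fold change 0.44 ± 0.12 SE, adjusted p = 0.0181), with a background of 27.5% (16.9% higher and 10.6% lower). *Jarid2* changed by 0.08 in this last step, *Suz12* by 0.38 and *Aebp2* by 0.41, none of which passed. *Ezh1* and *Ezh2* passed in no single step, with adjusted p of 0.0984, 0.119 and 0.459 for *Ezh1* and 0.222, 0.0668 and 0.0899 for *Ezh2*. Several of these steps passed in some of the alternatives run: *Ezh1* from day 4 to day 5 in 3 of 12, *Ezh2* from day 5 to day 6 in 3 of 12 and from day 6 to day 7 in 3 of 12, *Phf19* from day 5 to day 6 in 4 of 11, and *Aebp2*, higher from day 6 to day 7, in 2 of 12. After centring each library on its median gene, *Eed* no longer passed in the first step (adjusted p = 0.183) nor *Rbbp7* in the last (adjusted p = 0.234), while *Ezh1* passed in the first (adjusted p = 0.0409), *Phf19* in the second (adjusted p = 0.0199) and *Ezh2* in the second and last (adjusted p = 0.0312 and 0.00945). The step calls kept least often were *Eed* from day 4 to day 5, in 5 of 12 alternatives, and *Suz12* from day 5 to day 6, in 6 of 12. *Rbbp7* from day 6 to day 7 was kept in 8 of 12. The step counts also depended on single hairpins. Without Smarca4 hairpin 6, 4 members passed from day 4 to day 5 and 0 from day 6 to day 7, and from day 5 to day 6 there were 2 without Smarca4 hairpin 4, 3 without Smarca4 hairpin 6 and 2 without Smarcc1 hairpin 6. Without Smarca4 hairpin 4, neither RBBP gene kept its call from day 6 to day 7 (-0.79 for *Rbbp4* and 0.44 for *Rbbp7* on the log2 scale). *Aebp2* gained a call there (0.58).

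Within each arm the directions were the same. In Nons, which has 1 library on each of these days and borrows its spread from the hairpin pairs, 6 members passed between day 4 and day 7, when 31.9% of all tested genes did. *Ezh1*, *Eed*, *Rbbp4* and *Phf19* were the 4 that did not. In the Smarcc1 knockdown all 10 passed and in the Smarca4 knockdown 9, with *Rbbp4* (log2 fold change -0.58 ± 0.26 SE, adjusted p = 0.0822) the exception, against a background of 48.2% in each. *Jarid2* passed in each arm, with log2 fold changes of -2.47 in Nons, -2.24 in the Smarcc1 knockdown and -2.71 in the Smarca4 knockdown. For *Ezh1* the log2 fold change was 0.57 in Nons, which did not pass (adjusted p = 0.339), and 1.37 and 1.26 in the Smarcc1 and Smarca4 knockdowns, which did. That difference between arms in the day 7 against day 4 change was not tested by itself. The test of knockdown by day asked jointly whether a knockdown's difference from Nons was the same on days 4 to 7. It can miss a difference on 1 day alone. With limma, 0 of 10 members passed it for the Smarcc1 knockdown (background 0.256%) and 0 of 10 for the Smarca4 knockdown (background 0.00752%). In either, 0 had an unadjusted p under 0.05. With limma-voom on the recovered reads the adjusted counts were also 0 and 0.

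**Figure D2:**
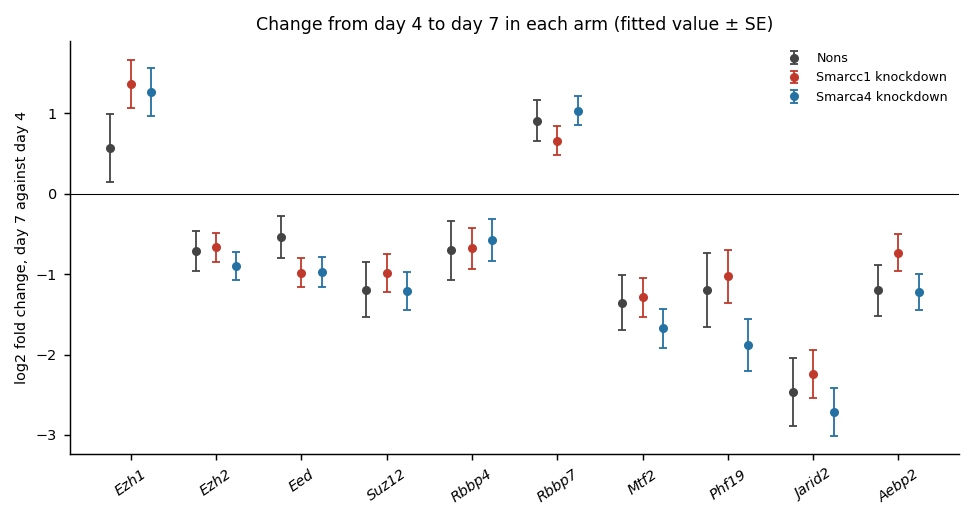
Fitted log2 fold change of day 7 against day 4 (y axis) for each PRC2 subunit (x axis) in Nons (grey, 1 library per day), the Smarcc1 knockdown (red, 2 per day) and the Smarca4 knockdown (blue, 2 per day); bars are 1 standard error of the limma fit. *Jarid2* lay lowest in every arm, at -2.47, -2.24 and -2.71, and *Ezh1* and *Rbbp7* lay above 0.

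The *Ezh1* share of the methyltransferase mRNA rose in all 5 series, and so did the *Rbbp7* share of the RBBP pair. Per kilobase of merged exons, *Ezh1* made up 10.3% (8.98 to 11.1%) of the sum of *Ezh1* and *Ezh2* on day 4, 15.2% on day 5, 21.7% on day 6 and 33.1% (21.8 to 36.7%) on day 7 (medians of 5 libraries). Nons was the lowest series on day 7, at 21.8%, and the 4 knockdown libraries lay between 27.05 and 36.7%. *Ezh2* thus remained the more abundant mRNA of the pair in every library. *Rbbp7* made up 46.1% (41.2 to 48.8%) of the RBBP pair on day 4, 46.5% on day 5, 50.4% on day 6 and 70.5% (67.3 to 73.4%) on day 7. On this scale the pair had therefore changed order by day 7, and in some libraries by day 6 (46.7 to 59.1%). In rpm, not divided by exon length (2909 bases for *Rbbp7* and 8744 for *Rbbp4*), *Rbbp7* stayed below *Rbbp4*. The rpm ratio of *Rbbp7* to *Rbbp4* was 0.69 to 0.92 on day 7. With the length of the longest coding transcript instead, the day 4 and day 7 medians were 7.81 and 26.8% for *Ezh1*, and 35.8 and 61.0% for *Rbbp7*. These shares are descriptions and were given no test.

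**Figure D3:**
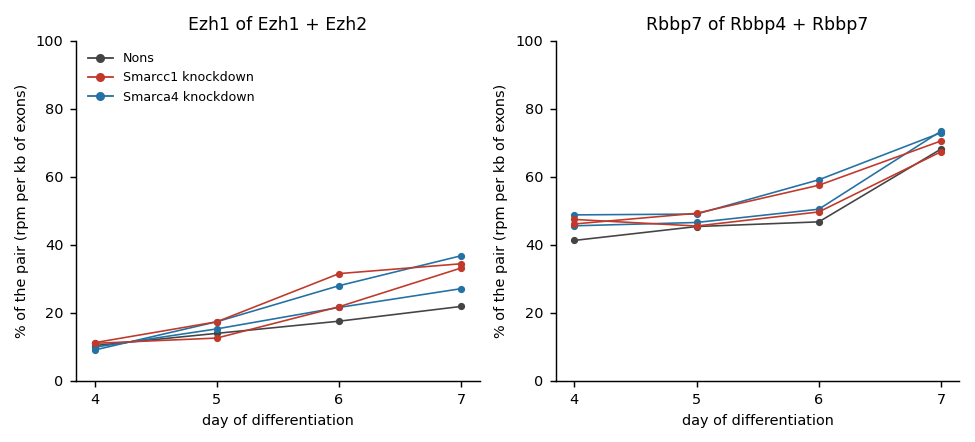
Share of *Ezh1* in *Ezh1* plus *Ezh2* (left) and of *Rbbp7* in *Rbbp4* plus *Rbbp7* (right), in percent of rpm per kilobase of merged exons (y axis, 0 to 100), by day (x axis). Lines are the 5 culture series, colored by arm; on day 7 *Ezh1* spanned 21.8 to 36.7% and *Rbbp7* 67.3 to 73.4%.

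Per kilobase of merged exons, the day 4 medians over 5 libraries ran from *Suz12* (113.6 rpm per kb), *Rbbp4* (104.0), *Rbbp7* (88.8), *Mtf2* (79.6) and *Jarid2* (77.5) through *Eed* (44.8) and *Ezh2* (32.4) to *Aebp2* (14.9), *Ezh1* (3.57) and *Phf19* (1.73). On day 7 the order was *Rbbp7* (146), *Rbbp4* (63.0), *Suz12* (56.2), *Mtf2* (26.6), *Eed* (22.9), *Ezh2* (19.6), *Jarid2* (12.4), *Ezh1* (9.27), *Aebp2* (6.95) and *Phf19* (0.751). *Jarid2*, whose range on day 4 overlapped that of *Mtf2*, had on day 7 a range (10.7 to 17.0) that overlapped that of *Ezh2* (16.0 to 21.1). *Ezh1*, clear below *Aebp2* on day 4, overlapped it on day 7. On day 4 the ranges of *Suz12* (79.9 to 123 rpm per kb), *Rbbp4* (96.5 to 105), *Rbbp7* (71.9 to 94.5), *Mtf2* (57.8 to 84.3) and *Jarid2* (61.6 to 80.3) each overlapped a neighbour in that order. On day 7, *Rbbp7* (lowest library 134.7) stood clear of *Rbbp4* (highest 73.0), and *Rbbp4* overlapped *Suz12*. Exon lengths count all annotated exons, so a gene with long rarely used exons is placed too low. The order depended on the length used. Per kilobase of the longest coding transcript, *Rbbp4* led on day 4 (median 206, 191 to 208), clear of *Suz12* (128, 90.3 to 140). *Jarid2* (126) then lay above *Rbbp7* (115) and *Mtf2* (112). On day 7 *Rbbp4* (118 to 145) was clear of *Suz12* (39.5 to 70.2) on that length.

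In the Smarcc1 knockdown, 3 of the 10 subunits were higher than in Nons over days 4 to 7, namely *Suz12*, *Mtf2* and *Aebp2*, and no member was lower. The median over the members was 0.36 on the log2 scale, and over all tested genes 0.06. Of all tested genes, 10.6% passed in this comparison, 7.54% higher and 3.08% lower. *Suz12* was measured at 610.3 and 562 rpm against 395 rpm in Nons on day 4, 237 and 262 rpm against 232 rpm in Nons on day 5, 184 and 308 rpm against 123 rpm in Nons on day 6, and 285 and 307 rpm against 173 rpm in Nons on day 7. The 8 knockdown libraries, from 2 hairpins on 4 days, all lay above Nons of their day, by little on day 5 and most on day 6 (log2 fold change 0.60 ± 0.15 SE, adjusted p = 0.019). *Mtf2* was at 480.5 and 461 rpm against 329 rpm in Nons on day 4, 416 and 259.5 rpm against 249.7 rpm in Nons on day 5, 250.3 and 217 rpm against 143 rpm in Nons on day 6, and 200.0 and 186 rpm against 128 rpm in Nons on day 7. Again 8 of 8 lay above, with the hairpins furthest apart on day 5 (log2 fold change 0.55 ± 0.15 SE, adjusted p = 0.0304). *Aebp2* reached 162 and 157 rpm against 141 rpm in Nons on day 4, 100.3 and 95.1 rpm against 76.2 rpm in Nons on day 5, 64.5 and 85.8 rpm against 45.2 rpm in Nons on day 6, and 97.9 and 94.2 rpm against 61.1 rpm in Nons on day 7 (log2 fold change 0.48 ± 0.14 SE, adjusted p = 0.0446). All 8 of its libraries were higher too, at 111 to 190.0% of Nons. Having all 8 libraries above same-day Nons was so for 8.69% of all tested genes.

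*Jarid2* was also above Nons in 8 of 8 Smarcc1 knockdown libraries but did not pass (log2 fold change 0.53 ± 0.18 SE, adjusted p = 0.0923). *Ezh1* was above in 7 of 8, from 75.6 to 285% of Nons (log2 fold change 0.55 ± 0.18 SE, adjusted p = 0.0808). The core genes *Ezh2* (0.09), *Eed* (0.01) and *Rbbp4* (0.01) were near 0 on the log2 scale, with standard errors of 0.11, 0.11 and 0.16, and *Rbbp7* (0.23 ± 0.11) and *Phf19* (0.13 ± 0.20) did not pass. The 3 calls rest on 1 Nons series and 2 hairpins, and none of them passed with each culture series as a block (adjusted p = 0.119 for *Suz12*, 0.156 for *Mtf2* and 0.222 for *Aebp2*). They were also sensitive to the libraries used. Left out in turn, days 4, 6 and 7 each left 0 members past the threshold and day 5 left 3 (*Suz12*, *Mtf2* and *Ezh1*); without Smarcc1 hairpin 7, 1 passed (*Mtf2*), without hairpin 6, 3 (*Suz12*, *Ezh1* and *Jarid2*), and without either Smarca4 hairpin, 1 (*Aebp2*). Pluripotency markers moved with the same contrast: 6 of 8 were higher in the Smarcc1 knockdown (median log2 fold change 0.96), and their summed level ranged over the libraries from 1081 to 3601 rpm in the knockdown and from 656.5 to 2804 rpm in Nons. Of 5 formative epiblast markers 2 were lower (*Fgf5* and *Otx2*; median over the 5 of -0.41). Among the markers tested, 1 of 4 fibroblast genes was higher and 1 lower, 1 of 4 neural and 1 of 2 primitive endoderm genes were higher, and 0 of 1 mesoderm gene passed. Of 7 proliferation markers 0 passed, also at an unadjusted p under 0.05. The part of cell makeup and differentiation state in the 3 differences was not tested.

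**Figure D4:**
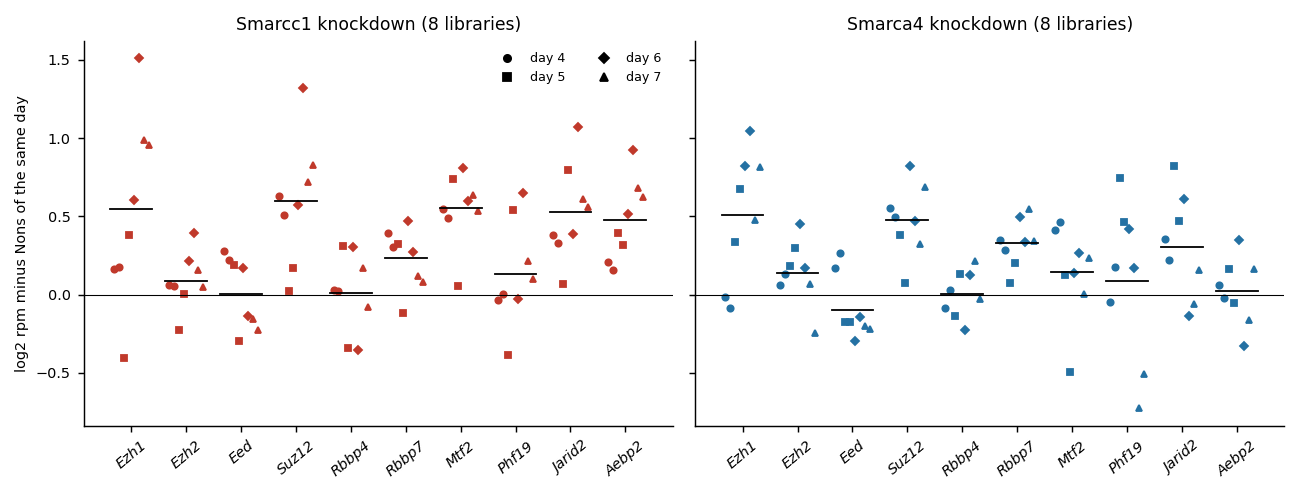
Log2 rpm of each knockdown library minus Nons of the same day (y axis) for the 10 PRC2 subunits (x axis), in the Smarcc1 knockdown (left) and the Smarca4 knockdown (right). Each point is 1 library, with its day given by the symbol, and the black bar is the fitted mean difference over days; all 8 points of *Suz12* lay above 0 in both panels, as did all 8 of *Mtf2*, *Jarid2* and *Aebp2* on the left and of *Rbbp7* on the right.

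In the Smarca4 knockdown 0 of 10 members passed with limma, when 6.71% of all tested genes did. At an unadjusted p under 0.05 there were 3, and with limma-voom 0 passed. The comparison shares its 4 Nons libraries with the one above, so the 2 are not independent. *Suz12* had 579 and 556 rpm against 395 rpm in Nons on day 4, 303 and 244 rpm against 232 rpm in Nons on day 5, 219 and 171 rpm against 123 rpm in Nons on day 6, and 216 and 278 rpm against 173 rpm in Nons on day 7. Its 8 libraries were above Nons and the test did not pass (log2 fold change 0.48 ± 0.15 SE, adjusted p = 0.0759). *Rbbp7* was likewise above Nons in 8 of 8 libraries, at 105 to 146% (log2 fold change 0.33 ± 0.11 SE, adjusted p = 0.102), and among the alternatives run it passed only when day 5 was left out (adjusted p = 0.0381). All 8 libraries above Nons was so for 9.85% of all tested genes. *Ezh1* was above in 6 of 8 (log2 fold change 0.51 ± 0.18 SE, adjusted p = 0.134). *Aebp2* (0.02 ± 0.14), *Mtf2* (0.14 ± 0.15) and *Jarid2* (0.31 ± 0.18) did not pass. Here 3 of 8 pluripotency markers were higher (median 0.74 on the log2 scale) and 0 of 7 proliferation markers passed. Of 5 formative epiblast markers 2 were lower, again *Fgf5* and *Otx2* (median over the 5 of 0.01), and 1 of 4 fibroblast genes was lower, 1 of 4 neural and 1 of 2 primitive endoderm genes were higher, and 0 of 1 mesoderm gene passed.

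Between the knockdowns, 1 of 10 members differed, with a background of 4.09% (2.55% higher in the Smarcc1 knockdown): *Aebp2* was higher in the Smarcc1 than in the Smarca4 knockdown (log2 fold change 0.46 ± 0.11 SE, adjusted p = 0.0407). In the Smarca4 knockdown *Aebp2* was at 147 and 139 rpm against 141 rpm in Nons on day 4, 85.4 and 73.2 rpm against 76.2 rpm in Nons on day 5, 57.5 and 36.0 rpm against 45.2 rpm in Nons on day 6, and 54.8 and 68.4 rpm against 61.1 rpm in Nons on day 7. The 2 Smarcc1 libraries were above the 2 Smarca4 libraries on all 4 days. The call was lost in each of the 8 fits that left out 1 hairpin or 1 day, with adjusted p from 0.0545 (without day 5) to 0.411 (without day 7), while the fitted difference stayed between 0.37 and 0.56. It was also lost with each culture series as a block (adjusted p = 0.255) and with a filter of 10 rpm (adjusted p = 0.0642), and was kept in 6 of 16 alternatives. *Mtf2* had the next difference (log2 fold change 0.41 ± 0.12 SE, adjusted p = 0.0877), which passed without the smallest library (adjusted p = 0.0235) and without day 5 (adjusted p = 0.0361). For *Suz12* the difference between the knockdowns was 0.12 ± 0.12 SE and did not pass.

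Of 9 other genes tied to PRC2, 5 passed from day 4 to day 7 (3 higher and 2 lower), against the 64.5% of all tested genes given above, and their median was -0.32 on the log2 scale. *Phf1*, the third Polycomb-like protein, rose where *Mtf2* and *Phf19* fell, from 3.35 to 5.53 rpm to 8.10 to 11.02 rpm (log2 fold change 1.10 ± 0.27 SE, adjusted p = 0.00278). *Lcorl*, which encodes a PRC2.1 partner, and *Ezhip*, an inhibitor of EZH2, rose by 0.90 and 0.62 on the log2 scale. *Epop*, an accessory protein that links PRC2.1 to elongin, fell from 104 to 196 rpm to 46.7 to 86.4 rpm (log2 fold change -1.08 ± 0.21 SE, adjusted p = 0.00062). *Kdm6a*, which encodes an H3K27 demethylase on the X chromosome, fell by 0.79 on the log2 scale. *Kdm6b* (-0.32), *Lcor* (-0.45) and the elongin genes *Elob* (-0.18) and *Eloc* (-0.38) did not pass. Against Nons 0 of these 9 genes passed in the Smarcc1 knockdown and 0 in the Smarca4 knockdown with limma (1 and 2 at an unadjusted p under 0.05), with backgrounds of 10.6 and 6.71%. For *Epop* the log2 differences were 0.62 and 0.62, with adjusted p of 0.0621 and 0.0847. *Ezhip* was lower in the Smarcc1 than in the Smarca4 knockdown (log2 fold change -0.49 ± 0.11 SE, adjusted p = 0.031).

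Of 27 developmental genes that carry H3K27me3 in mESCs, 11 had enough reads to be tested. In the Smarcc1 knockdown 4 were higher and 1 lower than in Nons, and in the Smarca4 knockdown 5 were higher and 1 lower, with medians of 0.62 and 0.61 on the log2 scale. Of all tested genes 10.6 and 6.71% passed in either direction, and their median was 0.06 in both. With no filter on low values, which lets all 27 in, 7 were higher and 1 lower in the Smarcc1 knockdown, when 5.41% of all 25965 entries were higher and 1.51% lower. In the Smarca4 knockdown it was 5 higher and 1 lower, with 2.49 and 0.928% of all entries. Genes past the threshold in the Smarcc1 knockdown included *Sox1*, a neural transcription factor (log2 fold change 2.40 ± 0.33 SE, adjusted p = 0.000548), and *Irx3*, a patterning homeobox gene (log2 fold change 1.32 ± 0.19 SE, adjusted p = 0.000623). In the Smarca4 knockdown they included *Sox1* (log2 fold change 2.33) and *Hand1*, a mesoderm factor (log2 fold change 1.35). The gene that was lower in both was *Wt1*, a factor of kidney and gonad development, named after its values were seen (log2 fold changes -1.25 and -1.17). From day 4 to day 7, 3 of the 11 were higher and 4 lower, a share of called genes close to the 64.5% of all tested genes, with log2 fold changes of 3.58 for *Hand1* and 2.57 for *Gata4*, an endoderm factor, among those that were higher. Those that were lower included the homeobox gene *Msx1* (-1.13) and the neural factor *Olig2* (-1.08), also named after their values were seen. The level of *Sox1* was low, at 0.533 to 29.9 rpm over the 20 libraries. Those of *Hand1* (0.400 to 17.8 rpm), *Gata4* (0.549 to 7.41 rpm) and *Msx1* (0.693 to 4.29 rpm) were low too. H3K27me3 itself was not measured in these libraries.

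The genes whose log2 levels followed the members most closely over the 20 libraries were given by Pearson correlation, as a description over libraries that share days and cultures. *Jarid2* was followed most closely by *Dlc1* (0.987), *Zfp532* (0.986) and *Tle4* (0.986), *Mtf2* by *Morc3* (0.986), *Rbbp4* by *Psmg1* (0.983), *Suz12* by *Cdyl2* (0.976), *Ezh1* by *Hook2* (0.972), *Eed* by *Mki67ip* (0.968), *Aebp2* by *Akap1* (0.957), *Phf19* by *Rrp1b* (0.948), *Ezh2* by *Bbs2* (0.942) and *Rbbp7* by *Cyb5d2* (0.9001). Among the 8 members that fell, the 28 pairwise correlations ranged from -0.03 to 0.94.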

How the data were processed

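RNA-seq libraries of male mESCs (TruSeq, single-end 75 bp reads) were trimmed with trim_galore and aligned to mm10 with tophat or hisat2 by the authors, who deposited log2 rpm values from the SeqMonk RNA-seq quantitation pipeline. HISAT2 and bcl2fastq are named in the submitters' processing notes. The annotation release and the use of strand are not given in the sources used here. Sample titles gave the group, hairpin and day of each library, since a genotype label calls the Smarca4 libraries a Smarcc knockdown. Of 24 libraries 20 have a column, and a Nons series of 4 libraries (replicate 2) was not analysed here. The lowest value of each library equals 0.9 of a read, from which whole reads were recovered (100% of values under 1000 reads whole within 0.02 reads). Counting error alone makes 3 reads, 0.109 to 0.439 rpm, the smallest number told from none.

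Genes were compared with limma 3.58.1 (lmFit, then eBayes with trend; R 4.3.3) on the log2 values of the 13296 genes averaging at least 0. The fit gave 12 means, 1 per arm and day, and had 8 residual degrees of freedom from the hairpin pairs. P-values were adjusted over all genes tested (Benjamini-Hochberg, threshold 0.05). Levels between genes were compared per kilobase of merged GENCODE exons, and promoters were taken from RefSeq. All 10 members, 9 other PRC2 genes, the knockdown targets, for each comparison the 3 largest changes past the threshold among 27 H3K27me3 genes, and the 3 genes most correlated with each member were eligible to be named, of which 1 gene is not reported here. Members, lists and rules were chosen with earlier results of these data known. The fits were tested on simulated data whose noise was drawn independently for each library. That check therefore does not cover libraries of 1 culture series that deviate together. Alternatives were other filters, 1 added to rpm, median centring, quantile normalization, limma-voom on the recovered reads, the culture series as a block, a straight line over days, and leaving out hairpins, days or, chosen after seeing the data, the smallest library.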

Additional observations from a re-analysis of the deposited data

Results flagged for a closer look

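*Aebp2* differed between the knockdowns in the direct contrast of the 2 arms, with a log2 difference of 0.46 (Smarcc1 minus Smarca4, 8 libraries each, from 2 hairpins on 4 days; adjusted p = 0.0407 with limma). The call was kept in 6 of 16 alternatives, and was lost with each culture series as a block (adjusted p = 0.255), with a filter of 10 rpm (adjusted p = 0.0642) and in all 8 fits that left out 1 hairpin or 1 day. It was higher in the Smarcc1 knockdown on 4 of 4 days. The same test of the other 9 members did not pass. Groups held 1 or 2 libraries per day, so no group was large enough for a test of single outlying libraries.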

How the results depend on the processing

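From day 4 to day 7 every member kept its direction under all alternatives run and its call in all but 1: *Rbbp4* without Smarca4 hairpin 6 (-0.59, adjusted p = 0.0513). *Phf19* is under 10 rpm and was not tested by the stricter filter. Centring on the median gene moved the median of all genes in that comparison from 0.08 to -0.09 on the log2 scale without turning a member. Over all comparisons and alternatives, 876 member values kept their side of the threshold, 24 gained a call, 63 lost one, and 0 called values were reversed. Among the 3 *Smarcc1* knockdown differences, limma-voom kept 1 (*Suz12*, with *Mtf2* at adjusted p = 0.103 and *Aebp2* at 0.0723), and centring lost *Mtf2* (adjusted p = 0.101). Over all 16 alternatives adjusted p ranged from 0.0110 to 0.191 for *Suz12*, from 0.00331 to 0.209 for *Mtf2* and from 0.0433 to 0.326 for *Aebp2*, all with the same sign.

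When each culture series was entered as a replicate block (estimated correlation 0.217), 0 members passed for the Smarcc1 knockdown against Nons and 0 between the knockdowns. Genes passing under the block numbered 605 instead of 1412 for the Smarcc1 knockdown, 258 instead of 892 for the Smarca4 knockdown, 105 instead of 544 between them, and 88 and 22 instead of 34 and 1 for the tests of Smarcc1 and Smarca4 knockdown by day. The block changed no member's call from day 4 to day 7, and added calls in the steps for *Ezh2* and *Phf19* (day 5 to 6, adjusted p = 0.0398 and 0.0294) and *Aebp2* (day 6 to 7, adjusted p = 0.0354). Deviations of a hairpin from its arm's mean correlated between days at -0.21 to 0.37 in the Smarca4 knockdown. In the Smarcc1 knockdown they correlated at 0.82, 0.44 and 0.58 among days 5 to 7, and at 0.02 to 0.06 between day 4 and the later days. Not all were above 0.1, so a shared hairpin number was not taken as a pairing in the main fit. That fit therefore does not allow for the shared deviations of the Smarcc1 libraries on days 5 to 7.

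Requiring a mean of 10 rpm gave 491, 266 and 182 genes for the 3 knockdown comparisons (0 members between the knockdowns), 5538 instead of 8575 from day 4 to day 7, 3207, 2617 and 2430 instead of 5147, 4288 and 3656 for the 3 steps, and 3 and 0 for the tests by day; fewer genes entered. For those tests by day the Smarcc1 count was 22 with no filter, 5 with 1 added to rpm and 3 with quantile values, and the Smarca4 count 0 with 1 added, 0 with quantile values, 0 with limma-voom, 8 after centring and 38 without the smallest library. That last alternative gave 2 members and 1067 genes between the knockdowns.

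Leaving out 1 hairpin or 1 day at a time, the members passing ranged from 0 to 3 (379 to 1894 genes) for the Smarcc1 knockdown, from 0 to 1 (132 to 964 genes) for the Smarca4 knockdown and from 0 to 1 (49 to 670 genes) between them. Leaving out 1 hairpin gave 4 to 8 members (3179 to 5030 genes) from day 4 to day 5, 2 to 5 from day 5 to day 6, and 0 to 3 (1061 to 4031 genes) from day 6 to day 7; by day, 0 to 3 genes passed for Smarcc1 and 0 for Smarca4. These fits have 4 to 6 residual degrees of freedom instead of 8. Other causes were not tested. The planned edgeR and DESeq2 fits were not run, because the deposited values are log2. Each contrast with Nons rests on 1 library per day, and p-values reflect the hairpin pairs only.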
